A study of Mus musculus with 18 samples.

Results

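The forkhead transcription factor FOXP2 was compared with GFP in layers 2-3 (L2-3) of the mouse neocortex, in 6 of the 18 RNA-seq libraries of a series that also sampled layer 4 (L4) and layers 5-6 (L5-6) of the same mice. The libraries were taken by their titles: 3 L2-3 libraries from mice electroporated with FOXP2, of which 2 had the human cDNA (huFOXP2) and 1 the mouse cDNA (moFoxp2), and 3 from mice with GFP. All 6 mice were of the CD-1 stock, which is outbred, so that animals differ from one another in sequence. In every mouse, plasmid DNA was electroporated in utero at E14.5 (E for embryonic day) into the wall of the ventricle, and tissue was taken at postnatal day 7. Per the labels the FOXP2 mice received FOXP2 or Foxp2 cDNA together with Gfp cDNA, and the control mice an empty plasmid in its place. Sagittal sections of 300 µm were microdissected, and the pieces of a layer were pooled within a mouse. Each mouse therefore gave 1 library per layer and was counted as 1 replicate.

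Several features limit these groups as a model. The labels describe the cells of L2-3 as GFP-negative and those of L4 as GFP-positive, so the L2-3 libraries are labelled as tissue beside the electroporated cells. Foxp2 counts, however, were higher in FOXP2 mice by a similar log2 fold change in L2-3 (2.77 ± 0.50, ± SE) and L4 (2.76 ± 0.31). The change in L2-3 did not pass (adjusted p = 0.0797, edgeR). Whether the L2-3 pieces held electroporated cells was not tested. The labels also place L2-3 among the infragranular layers, whereas it is a supragranular one. The promoter that drove the cDNA is not given in the sources used here, and moFoxp2 was represented by 1 mouse. Reads of an introduced cDNA and of the endogenous Foxp2 gene were not separated in the counts.

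FOXP2 is a DNA-binding protein of the forkhead family that mainly represses transcription and acts with its relatives FOXP1 and FOXP4. In the mouse cortex the endogenous gene is expressed chiefly by deep-layer projection neurons, most of all in layer 6, and little in the upper layers. L2-3 holds projection neurons that connect cortical areas, with interneurons, glia and vessels, and its upper side borders layer 1 with its Reelin-producing Cajal-Retzius neurons and the meninges that cover the brain.

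Library totals in L2-3 ranged from 11087748 to 23404528 counts. GFP mouse 1 stood apart from the other GFP mice: a chi-square per degree of freedom over genes was 36.5 and 30.2 for the pairs that held it and 8.89 for the other GFP pair, against 11.6 to 16.0 among FOXP2 libraries. Mitochondrial genes took 3.73% to 5.03% of counts in GFP and 4.07% to 4.98% in FOXP2 libraries. Each class held 1 female mouse. On CPM scaled over all 18 libraries, the 12 markers of layer 2-3 neurons summed to 2377 to 2442 CPM in the L2-3 libraries of GFP mice. Their L4 libraries held 1970 to 2365 CPM and their L5-6 libraries 725 to 1137 CPM. In FOXP2 mice the sum was 1769 to 1935 CPM in L2-3 and 2462 to 2527 CPM in L4. These markers thus set L2-3 apart from L5-6 but not clearly from L4. Markers of layer 6 and subplate neurons ran the other way in GFP mice, with 221 to 284 CPM in L2-3, 303 to 311 CPM in L4 and 839 to 1230 CPM in L5-6.

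Few single genes passed the test in L2-3, although many stood apart between the classes. Of 15241 genes tested, 12 passed an adjusted p of 0.05 (0.0787%, edgeR's quasi-likelihood test with Benjamini-Hochberg adjustment), 6 higher (0.0394%) and 6 lower (0.0394%) in FOXP2 mice. The largest differences were in 3 processed pseudogenes, Gm6166, Gm11942 and Rpsa-ps10. Among other genes, smooth muscle actin (Acta2), the lipid transfer protein Pltp and Egfl8 were higher in FOXP2 mice. Shisa6, an auxiliary subunit of AMPA receptors, the Wnt pathway protein Dixdc1, lipoprotein lipase (Lpl), Plcxd2 and the microRNA gene Mir6236 were lower. In bulk tissue, fewer cells of a type and less RNA per cell cannot be told apart, for these genes and for every list described here. Before adjustment, 2492 genes (16.4%) had a p under 0.05, of which 1583 were higher (10.4%) and 909 lower (5.96%). The libraries of the 2 classes did not overlap for 3160 genes (20.7%), with 1804 higher (11.8%) and 1356 lower (8.9%) in FOXP2 mice. Among those without overlap, 190 genes were at least 2-fold higher and 65 at least 2-fold lower. With 3 libraries a class, some genes separate fully by chance, and how many was not estimated.

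The number of calls rested on single libraries. Without GFP mouse 1, 304 genes passed (1.97% of 15460), 95 higher (0.614%) and 209 lower (1.35%), and all 12 genes were among them. Leaving out another library gave 2 genes (GFP mouse 2), 6 (GFP mouse 3) or 3 (moFoxp2 mouse 1, huFOXP2 mouse 1 or huFOXP2 mouse 2). DESeq2 called 755 genes, 490 higher and 265 lower.

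**Figure D1:**
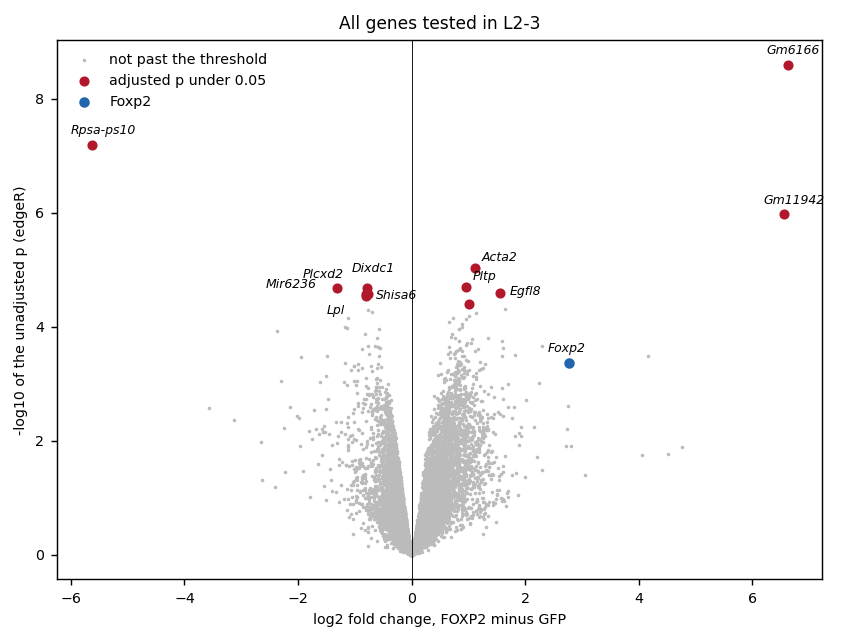
Each point is 1 of the 15241 genes tested in L2-3, with the log2 fold change of FOXP2 over GFP mice on the x axis and the negative log10 of the unadjusted edgeR p on the y axis. The 12 genes past the threshold are red, of which 11 are labelled, and Foxp2 is blue; the 3 pseudogenes lie farthest from 0.

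Foxp2 (ENSMUSG00000029563.16, mm10 chromosome 6, 14901349 to 15441977) had 1.83, 6.63 and 5.29 CPM in GFP mice 1, 2 and 3, 21.5 CPM in the moFoxp2 mouse and 20.5 and 53.01 CPM in huFOXP2 mice 1 and 2. CPM are counts relative to the library total, after TMM scaling of that total. All 3 FOXP2 libraries were above all 3 GFP libraries, and huFOXP2 mouse 2 had the highest level. The log2 fold change was 2.77 ± 0.50 (± SE), and it did not pass over all genes (adjusted p = 0.0797, edgeR, range 0.00339 to 0.333 over 16 alternatives). It passed in 3 of these alternatives: DESeq2 (adjusted p = 0.00339), a block for replicate numbers 1 and 2 in edgeR (0.0137) and 1 edgeR fit over all 18 libraries (0.0138). On CPM scaled over all 18 libraries, Foxp2 in L2-3 of FOXP2 mice (20.3 to 51.5 CPM) stayed below its endogenous level in L5-6 of GFP mice (52.7 to 68.6 CPM). Both are levels in bulk tissue, and reads of introduced and endogenous Foxp2 were not separated. They do not give the level in cells that carried the cDNA.

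Cntnap2 (ENSMUSG00000039419.17, chromosome 6, 45059357 to 47304213), a neurexin-family adhesion protein and a reported repression target of FOXP2, had 112, 139.7 and 151 CPM in GFP mice 1, 2 and 3, 129 CPM in the moFoxp2 mouse and 127 and 146 CPM in huFOXP2 mice 1 and 2. These ranges overlapped, the difference was -0.01 ± 0.13 (adjusted p = 0.987, edgeR), and its sign changed in 7 of 16 alternatives. Among 7 reported FOXP2 targets 0 passed, 4 lay above 0 and 3 below, and the median log2 fold change was 0.04, against -0.01 over all genes tested. That median turned to -0.12 without GFP mouse 1 and to -0.09 without huFOXP2 mouse 2, and was 0.13, 0.07 and 0.02 without GFP mouse 3, the moFoxp2 mouse or GFP mouse 2. The member of smallest p was Srpx2, which encodes a secreted protein that promotes synapse formation, with 3.27 to 5.02 CPM in FOXP2 and 0.942 to 2.80 CPM in GFP libraries (1.18 ± 0.35, adjusted p = 0.151, edgeR). The Forkhead P family and its partners gave 0 calls among 8 members tested, 4 on each side of 0 (median -0.07, which was -0.13, -0.03 and -0.12 without GFP mouse 1, GFP mouse 2 or huFOXP2 mouse 2). Foxp1, a relative with which FOXP2 pairs and which upper-layer neurons express, had 125, 175 and 162 CPM in GFP mice 1, 2 and 3, 105 CPM in the moFoxp2 mouse and 81.1 and 103 CPM in huFOXP2 mice 1 and 2. All FOXP2 libraries were below all GFP libraries for it, at -0.68 ± 0.15 (adjusted p = 0.101, edgeR). It passed without GFP mouse 1.

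Processed pseudogenes are copies of messenger RNAs inserted into the genome, and reads that fit both the copy and its parent can be counted for either or for neither. Gm6166 (ENSMUSG00000074280.6, chromosome 9, 57483963 to 57484371) is 98.289% identical over 409 bases to the messenger of Fabp5, a fatty acid binding protein. Rpsa-ps10 (ENSMUSG00000047676.6, chromosome 3, 150072658 to 150073542) is 99.322% identical over 885 bases to Rpsa, a protein of the small ribosomal subunit. Gm11942 (ENSMUSG00000094344.1, chromosome 4, 32964888 to 32965232) is 97.391% identical over 345 bases to Rplp1, a protein of the large subunit, and 97.681% to Gm10073. The following stretches of 60 bases from the mm10 reference are shown because they hold the kind of difference by which a read can be assigned to the copy or to the parent. Capitals mark the bases that differ between the members of a pair.
Fabp5, coding bases 334 to 393: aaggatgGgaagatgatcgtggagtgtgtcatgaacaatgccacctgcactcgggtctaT
Gm6166, chr9:57484298-57484357, plus strand: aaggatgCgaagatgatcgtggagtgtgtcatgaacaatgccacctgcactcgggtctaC
Rpsa, coding bases 160 to 219: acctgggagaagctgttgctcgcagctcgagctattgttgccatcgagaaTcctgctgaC
Rpsa-ps10, chr3:150073324-150073383, minus strand: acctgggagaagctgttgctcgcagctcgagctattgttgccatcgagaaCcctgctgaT
The differences are G341C and T393C in Gm6166 and T210C and C219T in Rpsa-ps10, counted from 1 at the start of the parent's coding sequence, with the parent's base first.

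Gm6166 had 0.294, 0.457 and 0.969 CPM in GFP mice 1, 2 and 3, 58.9 CPM in the moFoxp2 mouse and 57.6 and 51.2 CPM in huFOXP2 mice 1 and 2. It was under 1 CPM in every GFP library and at a nearly equal level in the 3 FOXP2 libraries, a rise of 6.62 ± 0.26 (edgeR adjusted p = 3.82e-05). The span of Gm6166 overlaps another processed pseudogene on the same strand, Gm18103, so the assignment of its reads is uncertain. Gm11942 showed the same division, with 0.353, 0.114 and 0.646 CPM in GFP mice 1, 2 and 3, 27.03 CPM in the moFoxp2 mouse and 53.3 and 22.7 CPM in huFOXP2 mice 1 and 2, and rose by 6.56 ± 0.53 (adjusted p = 0.00536, edgeR). Rpsa-ps10 ran the opposite way, with 319, 243 and 138 CPM in GFP mice 1, 2 and 3, 4.74 CPM in the moFoxp2 mouse and 4.52 and 4.87 CPM in huFOXP2 mice 1 and 2, and fell with a log2 fold change of -5.63 ± 0.33 (edgeR adjusted p = 0.000486). The calls of Gm6166 and Rpsa-ps10 held in all 16 alternatives, and that of Gm11942 in all but the fit without GFP mouse 2 (adjusted p = 0.0519).

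The parents of these copies were more abundant than the copies in every library, and 0 of 3 passed. Fabp5 had 268 to 339 against 232 to 262 CPM in GFP and FOXP2 libraries (-0.27 ± 0.11, adjusted p = 0.275, edgeR), without overlap. Rpsa differed by 0.08 ± 0.13 (adjusted p = 0.822) and Rplp1 by 0.25 ± 0.14 (adjusted p = 0.441, edgeR). Because the parents were more abundant, the sum of a copy and its parent moves less than the copy in any case. These sums therefore cannot show whether reads shifted between them. Gm6166 and Fabp5 together held 268 to 339 CPM in GFP and 283 to 320.5 CPM in FOXP2 libraries. Rpsa-ps10 and Rpsa together held 809 to 1105 CPM in GFP and 657 to 799 CPM in FOXP2 libraries, without overlap. Gm11942 and Rplp1 together held 629 to 892 CPM and 821 to 982 CPM, and Gm10073 was not included. Whether sequence differences between the outbred mice, litters or the handling of reads with several matches move with these copies was not tested. Of 201 processed pseudogenes tested, these were the 3 that passed, and 14 (6.97%) had an unadjusted p under 0.05, against 17.1% of 13917 protein-coding genes.

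The called genes that were lower in FOXP2 mice include a synaptic gene, a Wnt pathway gene and a lipase. Shisa6 (ENSMUSG00000053930.13, chromosome 11, 66211725 to 66525964) encodes a membrane protein that keeps AMPA-type glutamate receptors at the synapse, and it had 170.4, 146 and 157 CPM in GFP mice 1, 2 and 3, 93.2 CPM in the moFoxp2 mouse and 87.9 and 95.3 CPM in huFOXP2 mice 1 and 2. It fell with a log2 fold change of -0.78 ± 0.10 (edgeR adjusted p = 0.0399), and the groups did not overlap. The span of Shisa6 overlaps Gm12296, a processed transcript on the other strand. Dixdc1 (ENSMUSG00000032064.17, chromosome 9, 50662752 to 50739517), a DIX-domain protein of the Wnt pathway that takes part in dendrite and spine growth, had 149.9, 142 and 140.2 CPM in GFP mice 1, 2 and 3, 77.3 CPM in the moFoxp2 mouse and 78.8 and 91.2 CPM in huFOXP2 mice 1 and 2. It fell, at -0.81 ± 0.10 on the log2 scale (adjusted p = 0.0399, edgeR). Lpl (ENSMUSG00000015568.16, chromosome 8, 68880491 to 68907448), which frees fatty acids from lipoproteins, had 230.1, 249 and 269 CPM in GFP mice 1, 2 and 3, 152 CPM in the moFoxp2 mouse and 132 and 144 CPM in huFOXP2 mice 1 and 2. The change was -0.81 ± 0.10 (adjusted p = 0.0399, edgeR), and the FOXP2 libraries lay close to one another.

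Plcxd2 (ENSMUSG00000087141.1, chromosome 16, 45959263 to 46010218), a member of the phospholipase C X-domain family, had 523, 551 and 587 CPM in GFP mice 1, 2 and 3, 342 CPM in the moFoxp2 mouse and 313 and 306 CPM in huFOXP2 mice 1 and 2 and fell with a log2 fold change of -0.79 ± 0.09 (adjusted p = 0.0399, edgeR). Its span overlaps an antisense gene, Gm15638. Because the use of strand in the counting is not given in the sources used here, reads of the pair cannot be told apart. Mir6236 (ENSMUSG00000098973.1, chromosome 9, 110281287 to 110281409) had 255, 356 and 321 CPM in GFP mice 1, 2 and 3, 145 CPM in the moFoxp2 mouse and 105 and 124 CPM in huFOXP2 mice 1 and 2, a change of -1.32 ± 0.16 (edgeR adjusted p = 0.0399). Reads over this locus in a total RNA library come from RNA longer than the mature microRNA as well, so the count is not that of the mature form. The handling of reads with several matches is not given, so the origin of these reads is uncertain. The mature form, from RefSeq on GRCm38.p6 (chr9:110281353-110281371, plus strand), is shown with its seed, bases 2 to 8, in capitals because it identifies the locus that was counted.
mmu-miR-6236: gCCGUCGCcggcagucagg

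The called genes that were higher in FOXP2 mice include a vessel wall gene and a gene of lipid transfer. Acta2 (ENSMUSG00000035783.8, chromosome 19, 34241090 to 34255590), the actin of vascular smooth muscle, had 23.1, 21.3 and 22.2 CPM in GFP mice 1, 2 and 3, 52.8 CPM in the moFoxp2 mouse and 48.2 and 42.6 CPM in huFOXP2 mice 1 and 2. It rose by 1.11 ± 0.12 (edgeR adjusted p = 0.0359), and the GFP libraries lay close to one another. Pltp (ENSMUSG00000017754.13, chromosome 2, 164839518 to 164857711), which moves phospholipids between lipoproteins, had 90.98, 103 and 106 CPM in GFP mice 1, 2 and 3, 207 CPM in the moFoxp2 mouse and 205 and 169.7 CPM in huFOXP2 mice 1 and 2. It rose by 0.96 ± 0.11 (adjusted p = 0.0399, edgeR), and its span overlaps the neighbouring gene Ctsa. Egfl8 (ENSMUSG00000015467.14, chromosome 17, 34613349 to 34615971), a small secreted EGF-like protein, had 2.24, 2.000 and 2.39 CPM in GFP mice 1, 2 and 3, 6.52 CPM in the moFoxp2 mouse and 6.49 and 6.55 CPM in huFOXP2 mice 1 and 2 and rose by 1.56 ± 0.19 (adjusted p = 0.0399, edgeR). Its span overlaps Agpat1 and Gm20460, so its low count is uncertain.

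Each of these 8 called genes that are not pseudogenes lost its call in 9 to 10 of 16 alternatives, in every case when any library other than GFP mouse 1 was left out, while its direction stayed the same in all 16. Markers of non-neuronal cells differed along with these genes: 13 meningeal markers summed to 477 to 1429 CPM in GFP and 1695 to 2530 CPM in FOXP2 libraries, and 7 smooth muscle genes, Acta2 included, to 72.6 to 80.5 and 132 to 153 CPM. With the mean level of the meningeal markers as a term, 10 of the 11 genes named above still passed, and Egfl8 had an adjusted p of 0.0501 (edgeR, 1.59 ± 0.27). Acta2 had 1.21 ± 0.15 in that fit (adjusted p = 0.0269, edgeR). The mean log2 CPM of the meningeal markers was 4.24, 6.02 and 5.73 in GFP mice 1, 2 and 3. It was 5.83 in the moFoxp2 mouse and 6.91 and 6.57 in huFOXP2 mice 1 and 2. This level ran partly with the class, and GFP mouse 1 lay far below the rest. The fit therefore cannot separate meningeal content from the class, here or where it is used below. The part of the smooth muscle genes was not tested.

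**Figure D2:**
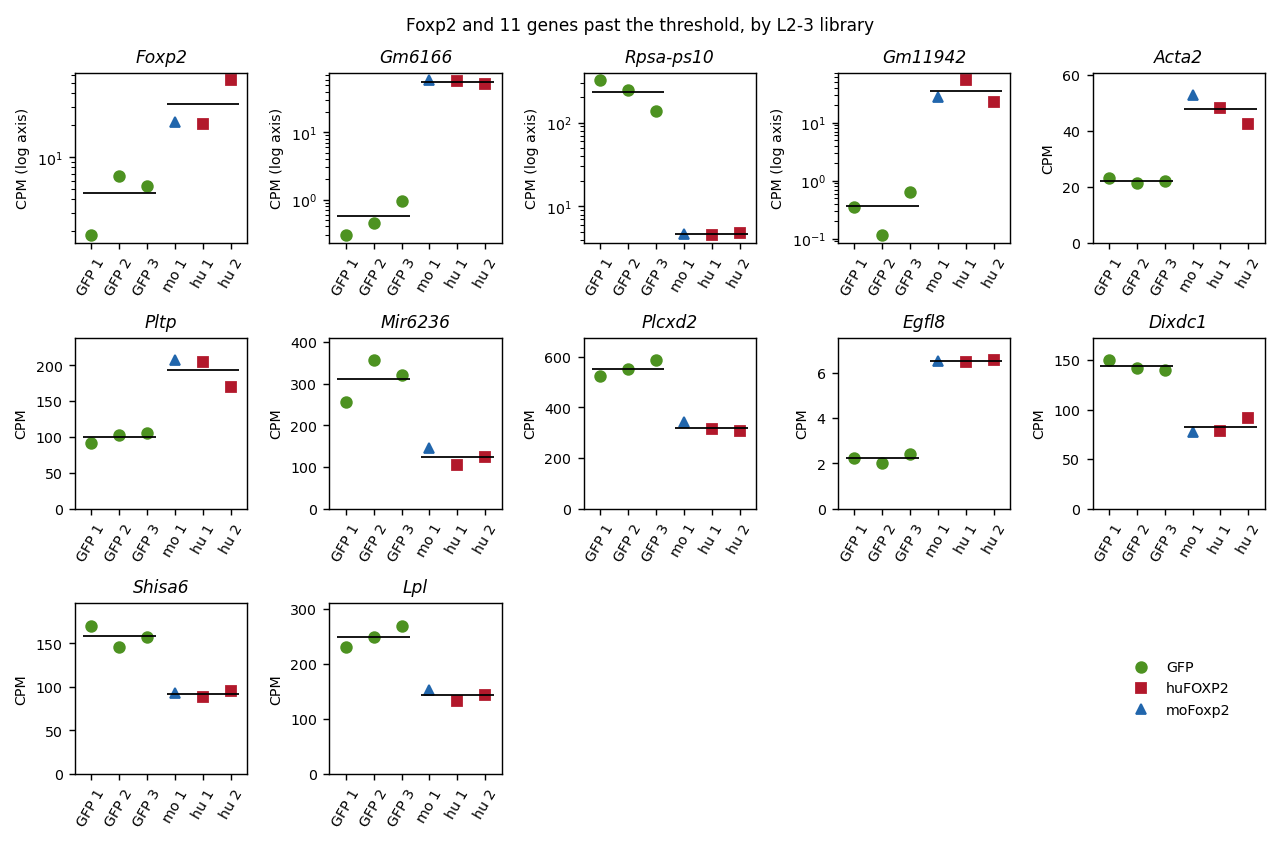
CPM of Foxp2 and 11 genes past the threshold in each L2-3 library, with GFP mice as green circles, huFOXP2 mice as red squares and the moFoxp2 mouse as a blue triangle; bars are class means over 3 mice, and panels with a wide range have a log axis. In every panel the 3 FOXP2 libraries lie on 1 side of the 3 GFP libraries.

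Promoter sequences were available from RefSeq (GRCm38.p6) for 5 of these 11 called genes. The 250 bases before the RefSeq start of Acta2 and of Pltp are shown because they hold the forkhead core TGTTTA, searched on both strands and printed in capitals. That core was found in 2 of the 5 genes and in 3952 of 32851 promoters of the same length (12.03%). The gene span given above for Acta2 is that of GENCODE, which begins farther upstream: 217 of the 250 bases of Acta2, the marked core included, lie inside it, against 3 of the 250 bases of Pltp, whose core lies outside. A match is a string of letters and no evidence of binding.
Acta2, chr19:34255374-34255623, minus strand: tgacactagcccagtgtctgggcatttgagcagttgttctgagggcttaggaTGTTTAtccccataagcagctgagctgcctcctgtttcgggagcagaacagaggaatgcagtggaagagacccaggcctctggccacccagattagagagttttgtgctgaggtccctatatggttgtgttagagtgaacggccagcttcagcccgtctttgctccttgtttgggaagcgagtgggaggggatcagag
Pltp, chr2:164857709-164857958, minus strand: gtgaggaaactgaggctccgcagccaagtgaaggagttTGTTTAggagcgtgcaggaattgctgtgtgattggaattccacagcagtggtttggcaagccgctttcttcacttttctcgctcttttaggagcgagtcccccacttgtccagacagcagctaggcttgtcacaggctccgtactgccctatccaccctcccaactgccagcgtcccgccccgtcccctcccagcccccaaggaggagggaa

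Just outside the threshold, the 10 higher genes of smallest p without overlap had adjusted p of 0.0534 to 0.0588 (edgeR) and did not pass. From here on, ranges are those of the 3 GFP libraries against those of the 3 FOXP2 libraries, and single values run in the order GFP mice 1, 2 and 3 against moFoxp2 mouse 1 and huFOXP2 mice 1 and 2. The higher genes included the amino acid transporter Slc36a2 (3.62 to 4.18 against 9.12 to 14.9 CPM), Serpinf1, a secreted inhibitor of vessel growth (62.7 to 87.9 against 136 to 180.1 CPM), and Mxra8, a matrix-associated adhesion protein (16.2 to 21.4 against 35.5 to 41.5 CPM). Col15a1, a basement membrane collagen, had 15.1 to 19.9 against 33.1 to 35.8 CPM, and Myl9, a smooth muscle myosin light chain, 23.1 to 24.5 against 37.8 to 48.1 CPM. Heyl, a target of Notch signalling in vessel walls, had 19.95 to 25.5 against 38.9 to 41.9 CPM. The mitochondrial carrier Ucp2 (38.4 to 40.5 against 59.9 to 70.4 CPM), the growth factor binding protein Igfbp4 (144 to 152 against 210.1 to 243 CPM), the galactosyltransferase B4galt1 and Fam43a completed the 10.

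On the lower side the 10 nearest genes had adjusted p of 0.0534 to 0.0695 (edgeR). They included carriers of ions in neurons: the calcium pump Atp2b2 had 642 to 785 against 403 to 423 CPM and the sodium channel Scn8a 186 to 205 against 130.03 to 134 CPM. The kinase gene Pak7, AI593442 and AF529169 were also among them, as were 3 noncoding loci. Lars2, a mitochondrial leucyl-tRNA synthetase, had 669 to 1021 against 329.6 to 422 CPM, and Gm15564, annotated as antisense over Kpna1 and Parp9, had 128 to 197 against 63.9 to 82.2 CPM. The microRNA locus Gm23935, which lies within the span of Zc3h7a, had 215 to 241 against 106 to 145 CPM, and Rn7sk, the 7SK RNA that holds back transcription elongation, had 1.49 to 2.07 against 0.222 to 0.442 CPM.

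The 37 lists of cell type and pathway genes were described by counts and medians. Of their 337 different genes tested 5 passed (1.48%, against 0.0787% of all genes): Acta2, Shisa6, Pltp, Lpl and Dixdc1. The lists were chosen with earlier results of these data known, so this share is no evidence about them. Over all genes tested 48.3% lay above 0 and the median was -0.01. Counts of members with an unadjusted p under 0.05 stand against 10.4% of all genes in the higher and 5.96% in the lower direction, and counts without overlap against 11.8% and 8.9%. Where leaving out 1 library turned the sign of a list's median or moved it by over 1.5 times, that is given with the list.

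Markers of the projection neurons of upper layers and neuronal genes in general had lower values in the L2-3 libraries of FOXP2 mice. All 12 markers of layer 2-3 neurons lay below 0, with a median of -0.41, and 0 passed. The 8 of them with an unadjusted p under 0.05 compare with 5.96% of all genes in that direction, and 7 had no overlap (8.9% of all genes). Unc5d, a netrin receptor of upper-layer neurons, had 89.7, 104 and 107 CPM against 45.5, 57.2 and 70.2 CPM, and the transcription factor Cux2 had 409.8, 306 and 319.7 CPM against 242, 226 and 232 CPM. Cux1, its relative, had 307 to 371 against 245 to 266 CPM. Summed over the list, FOXP2 libraries held 1790 to 1992 CPM and GFP libraries 2381 to 2499 CPM. The list did not fall in the other layers of these mice, on CPM scaled over all 18 libraries. In L4 it held 2462 to 2527 CPM in FOXP2 and 1970 to 2365 CPM in GFP libraries, without overlap. In L5-6 it held 978 to 1387 CPM and 725 to 1137 CPM, which overlapped. The median in L2-3 was again -0.41 without GFP mouse 1. The meningeal markers were higher in the L2-3 libraries of FOXP2 mice. With their mean level as a term in edgeR, Unc5d passed, while Cux2 and Cux1 did not. The list as a set was not tested in that fit. Of 8 layer 4 markers 6 lay below 0, with a median of -0.58 that was -0.25 without GFP mouse 1. Rorb, the nuclear receptor that marks layer 4, had 213, 89.03 and 125 CPM against 60.4, 47.4 and 42.2 CPM, with the highest level in GFP mouse 1, and -1.51 ± 0.29 (adjusted p = 0.0872, edgeR). The potassium channel gene Kcnh5, also on that list, had 21.9 to 74.97 against 19.6 to 25.4 CPM, and these ranges overlapped.

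All 13 general neuronal and glutamatergic genes lay below 0, with a median of -0.42, 8 with an unadjusted p under 0.05 and 0 past the threshold. The vesicular glutamate transporters Slc17a6 and Slc17a7 had 101 to 135 against 76.2 to 79.02 CPM and 339 to 404 against 262 to 305 CPM, and the transcription factor Neurod2 had 124 to 174 against 87.3 to 102 CPM. Markers of deep layers did not share 1 direction. Of 12 layer 5 markers 7 lay above 0 (median 0.15), with Pou3f1 at 150.1 to 178 against 117 to 130.2 CPM and Parm1 at 29.1 to 41.5 against 43.8 to 51.5 CPM. The median of these turned to -0.06, -0.05 and -0.02 without the moFoxp2 mouse, GFP mouse 1 or GFP mouse 3, and was 0.42 and 0.09 without GFP mouse 2 or huFOXP2 mouse 1. Of 13 markers of layer 6 and subplate 9 lay above 0 (median 0.33, 0.14 without the moFoxp2 mouse), while Ntsr1, the neurotensin receptor of corticothalamic neurons, had 87.4, 87.4 and 96.2 CPM against 57.8, 59.4 and 65.7 CPM (-0.57 ± 0.10, adjusted p = 0.0717, edgeR) and the subplate gene Nxph4 1.53 to 2.97 against 3.10 to 5.92 CPM.

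Genes of synaptic receptors and channels were mostly below 0. Of 12 GABA-A receptor subunits 11 lay below 0 (median -0.31, -0.20 without GFP mouse 3), among them Gabra4 with 65.4 to 69.5 against 41.6 to 46.7 CPM. Of 18 potassium and HCN channel genes 15 lay below 0 (median -0.32), 8 with an unadjusted p under 0.05 (5.96% of all genes in that direction) and 7 without overlap (8.9%). The inward rectifier Kcnj3 had 72.4, 53.9 and 63.2 CPM against 35.4, 38.3 and 39.1 CPM (-0.75 ± 0.13, adjusted p = 0.0717, edgeR). Kcnh1 and Kcnh7, of the ether-à-go-go family, had 84.9 to 116 against 64.03 to 67.1 CPM and 53.4 to 77.2 against 41.1 to 45.1 CPM. Of 16 AMPA receptor subunits and auxiliary proteins 10 lay below 0 (median -0.07, which ran from -0.14 without GFP mouse 1 and -0.12 without huFOXP2 mouse 2 to -0.04 without the moFoxp2 mouse or huFOXP2 mouse 1). Shisa6 passed, and the auxiliary protein Cnih3 had 76.5 to 104 against 53.5 to 60.6 CPM and the subunit Gria2 207 to 302 against 198 to 213 CPM. Of 6 NMDA receptor subunits 4 lay below 0 (median -0.46), 3 of them without overlap, with 1 of 6 higher without overlap. Those below 0 included Grin2a with 48.4 to 68.7 against 33.5 to 38.4 CPM and Grin1 with 182 to 217 against 148 to 166 CPM. The kainate receptor subunit Grik1 had 23.1 to 32.7 against 12.2 to 20.3 CPM, and 4 of 5 such subunits lay below 0 (median -0.14, -0.21 without GFP mouse 1).

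Cntnap2 belongs to a family of contactins, Caspr proteins and neurexins that link neurites and synapses, of which 17 of 18 tested genes lay below 0 (median -0.35, -0.22 without GFP mouse 3) and 0 passed. Among them the contactin Cntn2 had 151, 137 and 144 CPM against 98.9, 105 and 113 CPM (-0.44 ± 0.09, adjusted p = 0.0997, edgeR). Neuroligin Nlgn1 had 81.6 to 117 against 74.1 to 82.7 CPM. Activity-induced early genes had a median of -0.21, with 7 of 10 below 0, and the median was -0.11 without GFP mouse 1 and -0.33 without huFOXP2 mouse 1. Fos, a common mark of recent activity, had 20.7, 14.8 and 13.5 CPM against 8.59, 7.62 and 4.96 CPM (-1.19 ± 0.24, adjusted p = 0.0921, edgeR), and Egr1 had 46.6 to 75.02 against 36.2 to 47.1 CPM, which overlapped.

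Other neurons of the upper cortex had higher values. All 6 markers of Cajal-Retzius neurons, which lie in layer 1, were above 0 with no overlap between the classes (11.8% of all genes in that direction), and the median log2 fold change was 0.998. Reln, their secreted guidance protein, had 171, 354 and 352 CPM against 609, 482 and 523 CPM, and Ndnf 38.1, 76.00 and 77.9 CPM against 143, 121 and 109 CPM. GFP mouse 1 was the lowest for both, as it was for the meningeal markers. With the mean level of those markers as a term in edgeR, Reln and Ndnf did not pass, as without it. Interneurons of layer 1 also express both genes. The transcription factors Trp73 and Nhlh2 had 5.95 to 9.94 against 11.4 to 23.03 CPM and 2.32 to 3.09 against 4.15 to 7.55 CPM. Adjusted p of these 4 genes were 0.121 to 0.142 (edgeR). All 14 interneuron genes also lay above 0, with a median of 0.42 and 7 with an unadjusted p under 0.05: Dlx1, a transcription factor of the lineage, had 39.1 to 46.9 against 52.05 to 63.6 CPM and the GABA-synthesizing enzyme Gad2 27.9 to 36.8 against 37.9 to 51.2 CPM.

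Genes of the meninges, vessels and blood also had higher values in FOXP2 mice. All 13 meningeal fibroblast markers lay above 0 (median 1.07), 11 with an unadjusted p under 0.05 (10.4% of all genes in that direction), 6 without overlap and 0 past the threshold. Their summed level was 477, 1429 and 1097 CPM in GFP mice 1, 2 and 3, 1695 CPM in the moFoxp2 mouse and 2530 and 1847 CPM in huFOXP2 mice 1 and 2. Islr, a matrix protein of these cells, had 27.1, 59.03 and 73.8 CPM against 137, 132 and 112 CPM, and the proteoglycan Lum 10.2 to 23.2 against 28.95 to 31.9 CPM. GFP mouse 1 was far below the others, and without it the list's median was 0.67. On CPM scaled over all 18 libraries, this list held 460 to 2513 CPM in L2-3 libraries and 32.5 to 109 CPM in those of L4, of both classes.

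Smooth muscle differed from the meningeal list in that GFP libraries lay together. All 7 tested genes lay above 0 (median 0.84), 5 without overlap (11.8% of all genes in that direction), and their sum was 72.6 to 80.5 CPM in GFP and 132 to 153 CPM in FOXP2 libraries. Beside Acta2, which rose, the myosin heavy chain Myh11 had 7.60, 9.37 and 9.10 CPM against 17.5, 15.3 and 14.7 CPM (0.86 ± 0.16, adjusted p = 0.0797, edgeR) and the intermediate filament gene Des 4.71 to 5.71 against 8.58 to 10.7 CPM. The median ranged from 0.80 to 0.90 when libraries were left out in turn. Endothelial genes (8 of 8 above 0, median 0.58) included the cadherin Cdh5 with 57.8, 86.6 and 72.9 CPM against 129, 126 and 115 CPM and the angiopoietin receptor Tek with 30.7 to 39.9 against 47.7 to 60.1 CPM. Pericyte genes (6 of 6 above 0, median 0.49) included Vtn, with 102 to 169 against 242 to 372 CPM, Pdgfrb, with 58.8 to 78.2 against 89.8 to 114 CPM, and Rgs5, with 194 to 299 against 345 to 449 CPM. Macrophages of the brain's borders had Pf4 at 2.94 to 6.23 against 8.37 to 12.6 CPM and Mrc1 at 25.1 to 65.7 against 84.4 to 100.04 CPM, and all 5 of their genes lay above 0 (median 0.98, 1.52 without GFP mouse 2). Red blood cell genes were above 0 in 4 of 4 (median 1.18): the haemoglobin genes Hba-a1 and Hbb-bs had 47.3 to 71.5 against 95.7 to 223 CPM and 94.7 to 146 against 153 to 335 CPM. The near-identical copy Hba-a2 was not tested, so the count of Hba-a1 is uncertain. Of 6 ependyma and choroid plexus genes 4 could be tested, all above 0 (median 1.18, 0.47 without huFOXP2 mouse 1 and 0.74 without GFP mouse 1). Ttr, the transthyretin of the choroid plexus, was at 0.229 to 0.471 CPM in GFP mice, 15.2 CPM in the moFoxp2 mouse and 0.837 and 1.24 CPM in huFOXP2 mice, so that 1 library held most of it.

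**Figure D3:**
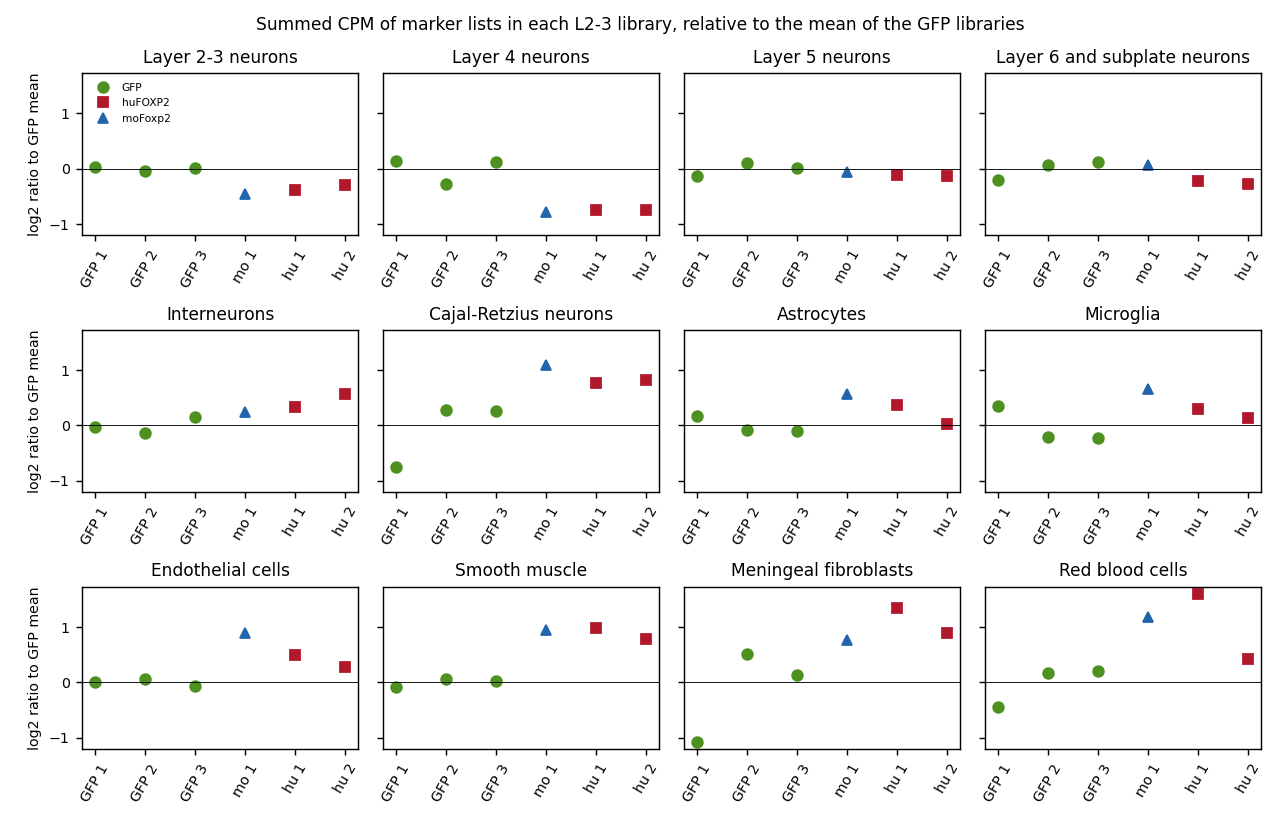
Summed CPM of 12 marker lists in each L2-3 library, as the log2 ratio to the mean of the 3 GFP libraries (green circles), with huFOXP2 as red squares and moFoxp2 as a blue triangle. Lists of layer 2-3 and layer 4 neurons lie lower, and those of Cajal-Retzius neurons and smooth muscle higher, in all FOXP2 libraries than in all GFP libraries, while GFP mouse 1 is the lowest for meningeal, Cajal-Retzius and red blood cell genes.

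Genes of astrocytes, microglia and reactive glia lay mostly above 0, and those of myelinating cells did not. Of 13 astrocyte genes 10 lay above 0 (median 0.38). The filament protein Gfap had 497, 385 and 307 CPM against 1151, 772 and 698 CPM (1.14 ± 0.22, adjusted p = 0.0883, edgeR), the gap junction gene Gjb6 17.9 to 25.3 against 34.9 to 69.8 CPM and the water channel Aqp4 399 to 444 against 485 to 844 CPM. Microglial genes lay above 0 in 11 of 12 (median 0.42, 0.72 without GFP mouse 1), and the complement genes C1qa and C1qc had 28.6 to 45.3 against 47.5 to 67.4 CPM and 24.99 to 38.6 against 41.2 to 60.4 CPM. Genes of reactive glia were all above 0 (8 of 8, median 0.74), 5 of them without overlap, including Vim with 121, 156 and 125 CPM against 246, 241 and 199 CPM (0.77 ± 0.13, adjusted p = 0.0717, edgeR). All 6 oligodendrocyte precursor genes lay above 0, with Pdgfra at 196 to 244 against 248 to 299.8 CPM, and their median of 0.33 was 0.09 without the moFoxp2 mouse and 0.18 without GFP mouse 2. Of 7 genes of myelinating cells 3 lay above 0. Their median of -0.07 turned to 0.40, 0.08, 0.05 and 0.01 without GFP mouse 3, GFP mouse 1, huFOXP2 mouse 2 or huFOXP2 mouse 1, and was -0.19 without GFP mouse 2. All 9 genes of dividing cells lay above 0 with a median of 0.19 (0.13 without the moFoxp2 mouse).

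Markers of the striatum and the hippocampus lay on both sides of 0. Of 7 striatal genes 3 lay above 0, and the median of -0.05 turned to 0.04, 0.11 and 0.09 without GFP mouse 1, GFP mouse 2 or huFOXP2 mouse 1, and was -0.14 and -0.12 without the moFoxp2 mouse or huFOXP2 mouse 2. Of 5 hippocampal genes tested 4 lay above 0, with Lct at 4.80 to 10.8 against 2.04 to 3.22 CPM and Prox1 at 15.8 to 26.8 against 28.1 to 29.7 CPM, and the median of 0.12 was 0.05, 0.32 and 0.22 without GFP mouse 1, GFP mouse 3 or the moFoxp2 mouse. Of 10 photoreceptor genes, 8 were too low to be tested, and both others lay above 0 (median 0.82, 0.41 without huFOXP2 mouse 1). Of 6 heat shock genes 3 lay above 0, with Hsph1 at 238 to 284 against 192 to 203 CPM, and the median of 0.00 ran from -0.14 to 0.11 with 1 library left out. All 5 interferon and inflammation genes that could be tested, of 9, lay above 0, with a median of 0.31 that was 0.15, 0.16 and 0.17 without GFP mouse 3, the moFoxp2 mouse or huFOXP2 mouse 2.

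Lipoprotein and lipid transfer genes held calls on both sides. Of 15 tested 11 lay above 0 (median 0.42), 8 with an unadjusted p under 0.05 in that direction and 2 in the other. Pltp rose and Lpl fell, while Apod, an apolipoprotein of glia and meninges, had 24.3, 53.6 and 47.8 CPM against 62.3, 142 and 139 CPM and the lipase inhibitor Angptl4 25.4 to 28.9 against 35.3 to 47.7 CPM. Retinoic acid genes lay above 0 in 13 of 14 (median 0.72): the receptor Rxra had 13.5 to 17.9 against 22.5 to 26.7 CPM, the reductase Dhrs3 9.04 to 11.7 against 14.1 to 17.9 CPM and the synthesizing enzyme Aldh1a1 22.3 to 37.7 against 39.5 to 60.2 CPM. Several genes of this list are also expressed by meningeal cells, whose summed level is given above. With the mean level of the meningeal markers as a term in edgeR, Rxra, Dhrs3 and Aldh1a1 did not pass, as without it. The list as a set was not tested in that fit. In the Wnt and Dishevelled list Dixdc1 fell, 8 of 13 genes lay above 0, and the median of 0.11 was 0.06, 0.01, 0.02 and 0.01 without GFP mouse 1, 2 or 3 or huFOXP2 mouse 2. The pathway's feedback gene Axin2 had 20.7 to 27.1 against 31.5 to 40.7 CPM and its transcription factor Lef1 7.10 to 7.77 against 8.41 to 13.5 CPM.

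**Figure D4:**
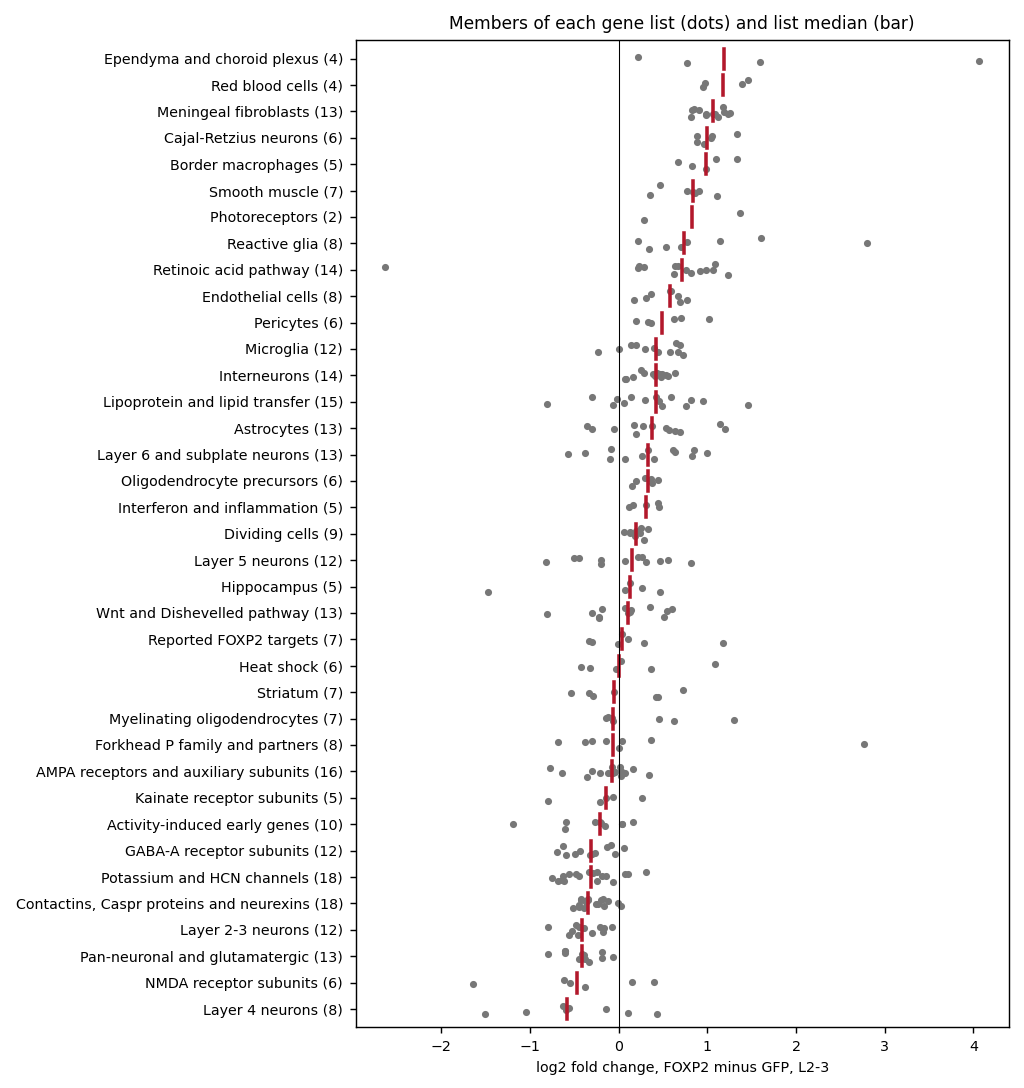
Log2 fold changes of FOXP2 over GFP in L2-3 for the tested members (dots, jittered) of 37 gene lists, with the number tested in parentheses and the list median as a red bar. Among the 37 medians, that of layer 4 neurons is the lowest (-0.58), followed by NMDA receptor subunits (-0.46), and those of ependyma and choroid plexus and of red blood cells are the highest (1.18 each).

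Without GFP mouse 1 the calls reached several of these lists. Of the 304 genes called then, 303 had the same sign over all 6 libraries, and the remaining gene was not tested over all 6. The libraries of this fit are among the 6, so that this agreement in sign is largely built in. Over all 6 libraries 187 of the 304 genes did not overlap. The lower calls held Cux2 and Unc5d of 12 layer 2-3 markers, Rorb and Kcnh5 of 8 layer 4 markers, and 5 of 12 GABA-A receptor subunits (among them Gabrb2, Gabra4 and Gabrb1). They also held 4 of 18 potassium and HCN channels (among them Kcnj3, Kcnq3 and Kcnh7) and 3 of 16 AMPA receptor genes (Cnih3, Gria2 and Shisa6). The higher calls held Reln and Ndnf of 6 Cajal-Retzius genes, 3 of 12 microglial genes (C1qa, C1qb and C1qc), Gfap, Vim, Cdh5, Myl9 and 1 of 13 meningeal genes (Islr). These counts compare with 1.35% lower and 0.614% higher calls among all genes in that fit.

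The difference between layers was tested for each gene with the mouse as a block. Between L2-3 and L4 the effect of FOXP2 differed for 0 of 15952 genes (edgeR; 2850 had an unadjusted p under 0.05, and 6 and 19 passed without GFP mouse 1 and GFP mouse 2). Foxp2 itself differed between the classes by 2.77 ± 0.50 in L2-3 and 2.76 ± 0.31 in L4, a difference of 0.01 ± 0.36. The 3 pseudogenes passed in each layer: Gm6166 at 7.50 ± 0.24 in L4 and 7.81 ± 0.29 in L5-6, Gm11942 at 6.99 ± 0.59 and 6.14 ± 0.52, and Rpsa-ps10 at -5.74 ± 0.37 and -6.15 ± 0.34. None of the 8 other called genes named above passed in L4 or in L5-6, and the nearest to a difference from L4 were Pltp (1.04 ± 0.18) and Lpl (-1.02 ± 0.18), both at an adjusted p of 0.0534 (edgeR). These 8 genes were chosen by their calls in L2-3, so that a smaller effect in the other layers is partly built in.

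Between L2-3 and L5-6 the effect differed for 2618 genes (16.4%), a number that depended on the mice in the fit. It was 0 without huFOXP2 mouse 1, 1517 and 1213 without GFP mouse 1 or 3, and 1272 and 1574 without moFoxp2 mouse 1 or huFOXP2 mouse 2. Foxp2 differed by 2.72 ± 0.34 (adjusted p = 0.00727, edgeR), while the classes differed by 0.02 ± 0.23 in L5-6. Cntnap2 stood at 0.42 ± 0.14 in L5-6 and differed by -0.44 ± 0.10 (adjusted p = 0.0155, edgeR), with its own effect past the threshold in neither layer. Shisa6 and Plcxd2 had opposite signs in the layers, 0.70 ± 0.31 and 0.64 ± 0.30 in L5-6, and differed by -1.55 ± 0.31 and -1.49 ± 0.25 (adjusted p = 0.0103 and 0.00855, edgeR). Acta2 differed by 2.37 ± 0.70 (adjusted p = 0.0358, edgeR), and its effect within L5-6 was -1.40 ± 0.89, where 1 GFP library had 10.1 CPM and the 5 other libraries 0.841 to 2.73 CPM. Without GFP mouse 1 the difference of Acta2 was 1.12 ± 0.54 and did not pass (adjusted p = 0.196, edgeR).

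**Figure D5:**
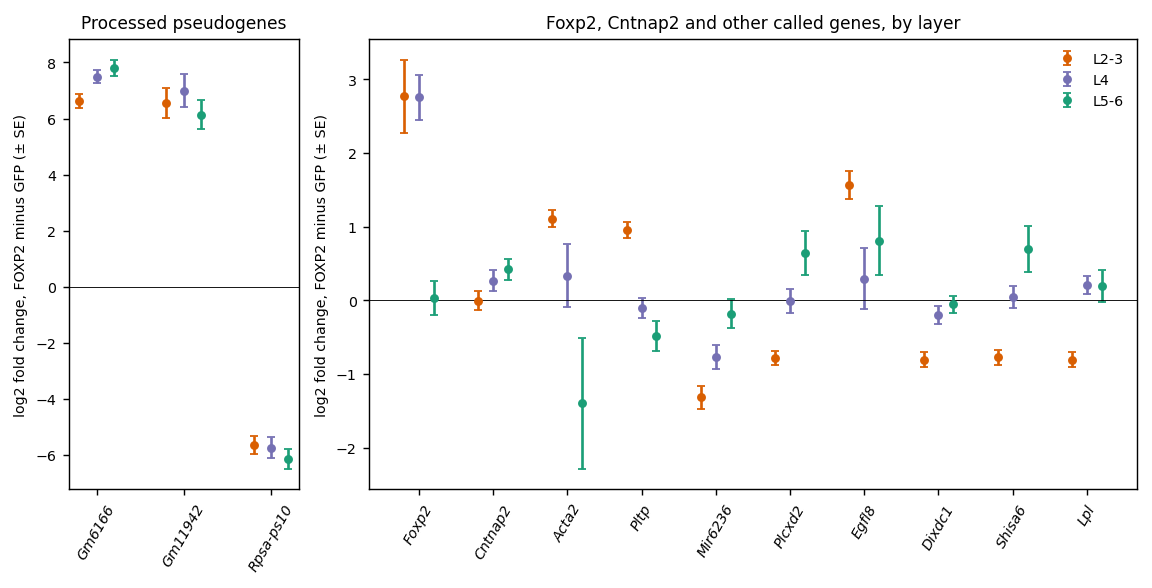
Log2 fold change (± SE) of FOXP2 over GFP mice within L2-3 (orange), L4 (purple) and L5-6 (green), 3 mice per class, for the 3 pseudogenes (left) and for Foxp2, Cntnap2 and 8 other called genes (right). The pseudogenes differ in the same direction in each layer, while the points of Pltp, Plcxd2, Dixdc1, Shisa6 and Lpl lie away from 0 in L2-3 and nearer to it or on the other side in L4 and L5-6. The called genes were chosen by their L2-3 values, so that this contrast is partly built in.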

How the data were processed

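RNA levels were measured in 6 L2-3 libraries from 6 mice, with the 12 libraries of L4 and L5-6 used only to test differences between layers. The authors deposited raw read counts for 54446 genes in 18 libraries, without normalization. Per the submitters' processing notes STAR, HTSeq and the mm10 genome were used; versions, gene models, strand and the handling of reads with several matches are not stated in the sources used here, so reads of overlapping genes and near-identical copies are uncertain. GENCODE M21 gave positions for 15232 of 15241 tested genes.

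Counts were filtered with filterByExpr (minimum count 10, minimum total 15), scaled by TMM and tested by the quasi-likelihood F test (edgeR 4.0.16, R 4.3.3), with Benjamini-Hochberg adjustment over all genes tested and a threshold of 0.05. Standard errors were derived from each log2 fold change and its F statistic. The scripts were tested on simulated counts. Depth ranged from 11087748 to 23404528 counts. Groups came from sample titles; mice of the FOXP2 and GFP classes shared only replicate numbers, so no block was used. Layer differences were tested over 18 libraries with the mouse as a block.

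Alternatives were RLE scaling, no filter, DESeq2 1.42.0, legacy dispersions, leaving out each library, a replicate block, 1 fit over all libraries, sex or a meningeal score as a term, and, added after seeing the data, male mice only. The text names Foxp2, Cntnap2, all genes past the threshold, the next 10 per direction by p without overlap and with a mean of at least 1 CPM, and up to 4 members of smallest p per list; a few genes that this rule takes are not reported here. The comparison, the 37 lists and the named pathways were chosen with earlier results of these data known.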

Additional observations from a re-analysis of the deposited data

Results flagged for a closer look

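The FOXP2 effect in L2-3 differed from that in L5-6, by an edgeR test of the difference itself with the mouse as a block, for 10 of the 13 genes described across layers (Foxp2, Cntnap2 and 11 called genes). Values are the log2 fold change in L2-3 minus that in L5-6. The difference was positive for Foxp2 (2.72, adjusted p = 0.00727), Acta2 (2.37, 0.0358), Pltp (1.40, 0.00727) and Rpsa-ps10 (0.50, 0.0455). For Rpsa-ps10 this means a slightly smaller fall in L2-3, since the gene fell in both layers. It was negative for Shisa6 (-1.55, 0.0103), Plcxd2 (-1.49, 0.00855), Mir6236 (-1.12, 0.00900), Lpl (-1.05, 0.00871), Dixdc1 (-0.77, 0.00871) and Cntnap2 (-0.44, 0.0155). Gm6166, Gm11942 and Egfl8 did not pass this test (adjusted p = 0.188, 0.600 and 0.223). For the 8 called genes that are not pseudogenes the choice of genes used their L2-3 values, so that a difference in this direction is partly built in. The call of Rpsa-ps10 was lost with any 1 mouse left out, that of Acta2 with any but GFP mouse 2 or 3 (1.12, adjusted p = 0.196, without GFP mouse 1), and that of Cntnap2 without the moFoxp2 mouse (0.0508). Without huFOXP2 mouse 1, 0 of all genes passed this edgeR test and 3695 had an unadjusted p under 0.05. Without the mouse block, 0 passed and 3154 had an unadjusted p under 0.05.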

How the results depend on the processing

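Counts of genes past the threshold changed with most settings. Over all genes, of which 12 passed (6 higher, 6 lower), the total was 19 (11 lower) without a filter, 755 with DESeq2 (490 higher, 265 lower), 295 in 1 fit over 18 libraries (243 higher, 52 lower), 5 with sex as a term (3 and 2), 71 with the meningeal score as a term (27 and 44) and 3 in male mice only (2 and 1). RLE scaling gave 10 and legacy dispersions 11. Leaving out 1 library gave totals of 2 to 304, with 1 to 95 higher and 1 to 209 lower. The share of higher genes among the calls, 50% here, was 64.9% with DESeq2 and 82.4% in the 18-library fit, and no alternative moved the median of all genes by more than 0.04. Why the counts moved was not tested.

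Replicate numbers did not pair the mice: deviations from class means correlated at 0.376, -0.299 and 0.119 for the 3 pairs with the same number, and GFP mouse 2 was the best match of huFOXP2 mouse 1 (0.257). A replicate block over numbers 1 and 2 gave 6 genes (3 higher, 3 lower), and the same 5 libraries without the block also 6 (2 higher, 4 lower).

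For the difference between L2-3 and L4, 98 genes passed without a filter and 0 to 19 with 1 mouse left out. For L5-6, 0 passed without the mouse block and 0 to 3589 with 1 mouse left out, against 2618.

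Signs turned where values were near 0. Cntnap2 ran from -0.123 to 0.0853 with 1 library left out and was positive without GFP mouse 2 (0.0211) or 3 (0.0853), the moFoxp2 mouse (0.0162) or huFOXP2 mouse 1 (0.0267), with the replicate block (0.133), over numbers 1 and 2 unblocked (0.0853) and in male mice (0.0565). Rpsa ran from -0.00944 to 0.181 with 1 library left out and was -0.0147 in male mice. The difference from L4 ran, with 1 mouse left out, from -0.317 to 0.296 for Foxp2 (-0.0127 without a filter), from -1.52 to 0.284 for Gm6166 and from -0.0150 to 0.299 for Rpsa-ps10. With 3 mice a class, a gene that missed the threshold is not shown to be unchanged.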
